A study of Mus musculus with 9 samples.

Results

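Expression of 5 genes that make, move or break down extracellular pyrophosphate and release phosphate was studied in differentiated MC3T3-E1 cells, a murine calvarial pre-osteoblast line. The genes were Enpp1, Ank, Alpl, Phospho1 and Nt5e, chosen by name from the gene table for their known roles. Earlier results of these data were known when they were chosen. All 5 were present among the 55416 genes of the table and passed the filter on low counts together with 13679 genes in all, so no member was left out. All libraries came from this wild-type line, which is a model of osteoblasts in culture rather than of bone, and all cells had been differentiated in osteogenic medium with 10 mM β-glycerophosphate (BGP), ascorbic acid and dexamethasone. By the study's methods BGP was taken out of the medium for the last week before treatment, while the labels give 27 days of differentiation without that step. At day 27 the cells received 4 mM BGP, an organic phosphate, or 4 mM NaHPO4, a mixture of both sodium phosphates and thus inorganic phosphate, or no added phosphate (Control), and RNA was harvested after 16 h. By the study's methods, medium in every condition also contained sodium phosphate, Control included. There were 3 libraries per condition and 9 in all. The labels do not say whether these came from separate cultures, so p-values speak for these libraries only.

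Mineral forms where phosphate and calcium are plentiful and pyrophosphate, a strong inhibitor of crystal growth, is scarce. ENPP1 splits extracellular ATP into AMP and pyrophosphate, and ANK, a membrane protein, is needed for the export of pyrophosphate or its nucleotide precursors. The alkaline phosphatase encoded by Alpl breaks pyrophosphate down to phosphate and also cleaves BGP, PHOSPHO1 releases phosphate from phosphocholine and phosphoethanolamine in matrix vesicles, and the 5'-nucleotidase CD73, encoded by Nt5e, turns AMP into adenosine and phosphate.

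The libraries held 21390839 to 28234404 counts, with NaHPO4 libraries (25203779 to 28234404) at the deep end. Pairs of libraries of the same condition differed by more than sampling noise (chi-square per degree of freedom 2.61 to 4.85), so no library was a copy of another. The cells expressed 5 of 5 osteoblast markers (Runx2, Sp7, Col1a1, Bglap and Ibsp) at 1 CPM (read counts relative to library size) or more in every condition, and 5 of 5 osteocyte markers in Control and BGP libraries and 4 of 5 in NaHPO4 libraries, where Sost lay lower. Of other cell types the list could detect, adipocyte markers summed to at most 0.276 CPM and endothelial markers to at most 0.187 CPM, 1 of 5 muscle markers (Des) and 2 of 5 chondrocyte markers (Sox9 and Col2a1) reached 1 CPM, and the macrophage and osteoclast list was carried by Ctsk.

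The stretches of 250 bases before the start of the annotated canonical transcript are shown for Enpp1 and Ank, which rose together, and for Alpl, which did not rise, so that they can be read side by side. They were read from the GRCm39 mouse genome on the strand of each gene, at chr10:24588057-24588306 on the minus strand for Enpp1, at chr15:27466308-27466557 on the plus strand for Ank and at chr4:137523711-137523960 on the minus strand for Alpl. Capitals mark matches to the motifs named after the sequences.
Enpp1: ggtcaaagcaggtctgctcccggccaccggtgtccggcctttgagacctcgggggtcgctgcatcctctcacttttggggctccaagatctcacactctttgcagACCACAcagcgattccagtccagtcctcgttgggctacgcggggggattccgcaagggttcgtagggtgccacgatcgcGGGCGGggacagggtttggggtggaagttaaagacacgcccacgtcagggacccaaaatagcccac
Ank: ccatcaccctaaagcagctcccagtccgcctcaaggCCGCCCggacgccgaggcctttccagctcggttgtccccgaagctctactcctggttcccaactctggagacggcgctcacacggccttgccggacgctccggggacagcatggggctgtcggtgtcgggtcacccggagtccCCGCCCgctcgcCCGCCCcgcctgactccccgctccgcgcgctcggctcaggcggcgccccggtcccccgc
Alpl: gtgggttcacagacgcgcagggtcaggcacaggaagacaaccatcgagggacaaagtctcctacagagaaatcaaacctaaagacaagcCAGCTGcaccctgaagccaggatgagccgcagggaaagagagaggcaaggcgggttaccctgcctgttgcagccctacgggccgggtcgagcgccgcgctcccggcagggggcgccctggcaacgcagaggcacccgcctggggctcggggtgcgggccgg
The motifs searched on both strands of 300-base windows, these 250 bases and the 50 bases after the start, were the EGR motif GCGNGGGCG, the AP-1 motif TGANTCA, the CRE motif TGACGTCA, the RUNX motif TGTGGT, the GC box GGGCGG, the E box CANNTG, the TATA box TATAAA and the SMAD box GTCTAGAC, and matches were allowed to overlap. The Enpp1 window held a RUNX match at bases -145 to -140 on the opposite strand and a GC box at -66 to -61, counted back from -1, the base before the start. Matches to RUNX were present in 15.3% and to the GC box in 42.8% of 21560 promoter windows of protein-coding genes. The Ank window held 3 GC boxes, all on the opposite strand, and the Alpl window held an E box at -161 to -156, a motif found in 70.4% of windows, and 3 GC boxes after the start, outside the printed bases. The letters of the EGR, AP-1, CRE and SMAD motifs (in 6.27%, 7.10%, 2.44% and 0.269% of windows) were absent from the Enpp1, Ank and Alpl windows alike. Of the members not shown, Phospho1 held an AP-1 match at -162 to -156 and Nt5e lacked these motifs too. The GC content of the 250 bases was 61.6% for Enpp1, 73.2% for Ank and 66.0% for Alpl, against a median of 53.2% over all promoters.

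Of the genes that make or export pyrophosphate, Enpp1 had the larger fold changes. The gene lies on chromosome 10, 24513812 to 24588057, minus strand (ENSMUSG00000037370), with 25 exons in its canonical transcript. Control libraries 1, 2 and 3 held 170, 108 and 256 counts of Enpp1, or 7.95, 4.70 and 10.1 TMM-normalized CPM. In BGP libraries the values were 53.8, 45.7 and 42.0 CPM, and in NaHPO4 libraries 31.2, 27.6 and 28.9 CPM. No library of any condition overlapped with those of another: all NaHPO4 libraries lay above all Control libraries and all BGP libraries above both. The Control libraries were the most uneven, with an SD of 35.8% of the mean, against 12.8% with BGP and 6.23% with NaHPO4. Mean expression in Control was 7.57 ± 2.71 CPM (SD, n = 3), and BGP raised it to 47.2 ± 6.03, a log2 fold change (log2FC) of 2.63 with a standard error of 0.117 (6.17-fold, 95% interval 5.24 to 7.28, adjusted p = 4.90e-19, edgeR's quasi-likelihood test with Benjamini-Hochberg adjustment). With NaHPO4 it rose to 29.3 ± 1.82 CPM, a log2FC of 1.94 with a standard error of 0.121 (3.83-fold, 3.23 to 4.54, edgeR adjusted p = 2.75e-14). Both comparisons use the same Control libraries. Left out in turn, single libraries moved the log2FC from 2.3757 to 2.9084 with BGP. That range is wider on both sides than the 95% interval, 2.3886 to 2.8633. With NaHPO4 the log2FC ran from 1.6876 to 2.2203, against an interval of 1.692 to 2.1835. A Control library set each bound, so these intervals understate how far 1 Control library moves the value.

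Ank is located on chromosome 15, 27466558 to 27598709, plus strand (ENSMUSG00000022265), with 12 exons. Its Control libraries held 82.8, 73.7 and 87.6 CPM. With BGP the values were 259, 259 and 240 CPM, and with NaHPO4 they were 175, 159 and 195 CPM. As for Enpp1, the conditions did not overlap and followed the order Control, NaHPO4, BGP. Expression of Ank rose 3.10-fold with BGP (81.4 ± 7.10 to 253 ± 11.1 CPM, log2FC 1.63 with a standard error of 0.054, edgeR adjusted p = 5.86e-23). With NaHPO4 it rose 2.16-fold (to 176 ± 18.1 CPM, log2FC 1.11 with a standard error of 0.0542, edgeR adjusted p = 1.64e-17). Ordered by p-value among 13679 genes, Ank ranked 3 and Enpp1 7 with BGP, and Ank ranked 4 and Enpp1 6 with NaHPO4. The summed level of the 5 osteocyte markers had the same order, with 183 to 211 CPM in Control, 474 to 544 in NaHPO4 and 724 to 831 in BGP libraries. Of these markers Dmp1 and Fam20c carried the sum and rose, whereas Mepe had means of 3.45, 3.07 and 3.44 CPM in that order. Phex passed with BGP (log2FC 0.26, edgeR adjusted p = 0.0333) and not with NaHPO4 (0.08, adjusted p = 0.579). With BGP edgeR called 3 of the 5 higher, and DESeq2 and limma 2. Sost, an inhibitor of bone formation, fell with NaHPO4 (log2FC -1.69, edgeR adjusted p = 0.00272). Limma called 0 osteocyte markers lower with NaHPO4. In bulk RNA a change in the number of cells of a type and a change in RNA per cell cannot be told apart, and the part of the osteocyte markers in these results was not tested.

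**Figure D1:**
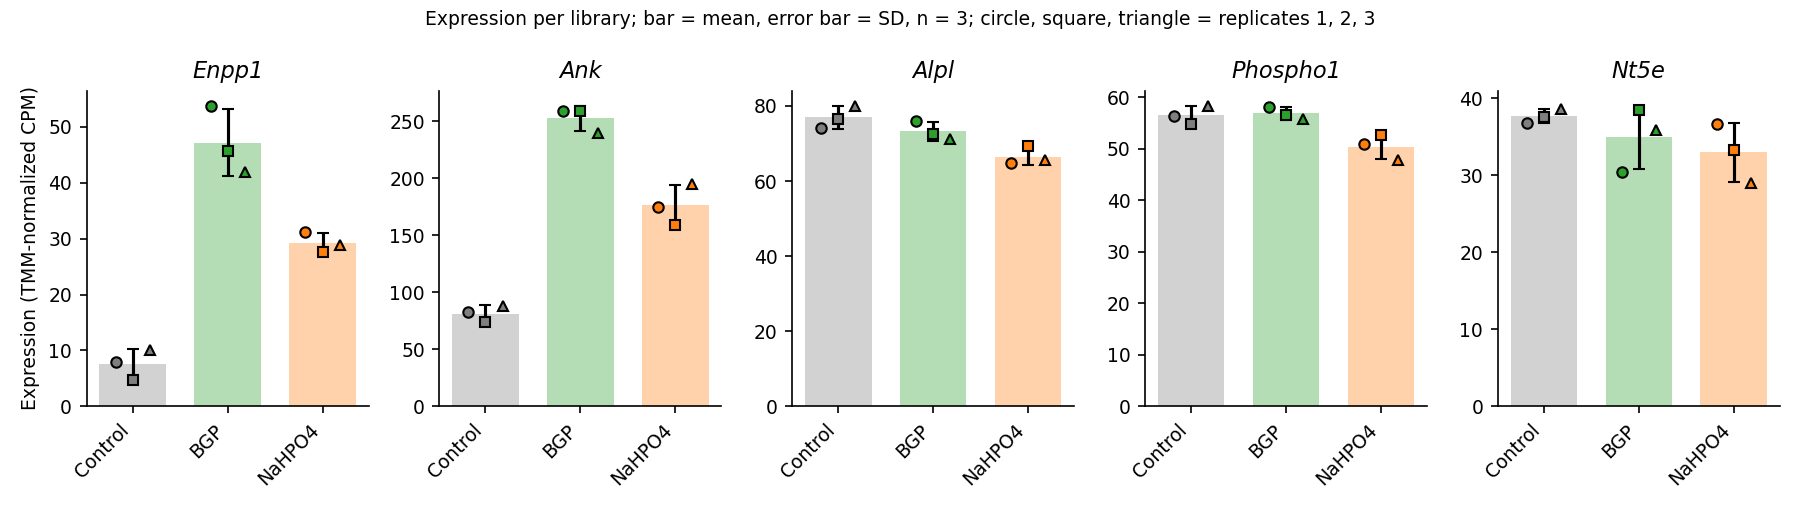
Expression of the 5 genes in each library, in TMM-normalized CPM on axes that start at 0, for Control (gray), BGP (green) and NaHPO4 (orange); bars are means, error bars SDs over 3 libraries and symbols the replicate numbers. Enpp1 and Ank rose in the order Control, NaHPO4, BGP with no overlap, while Alpl, Phospho1 and Nt5e stayed within 29.0 to 80.1 CPM.

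Of the enzymes that release phosphate, Alpl changed little. It lies on chromosome 4, 137469039 to 137524102, minus strand (ENSMUSG00000028766), with 12 exons in the canonical transcript. Control libraries held 74.2, 76.5 and 80.1 CPM and BGP libraries 76.1, 72.5 and 71.1 CPM, ranges that overlap. NaHPO4 libraries held 64.8, 69.2 and 65.5 CPM, all below the lowest Control and BGP libraries. With BGP the log2FC was -0.07 with a 95% interval of -0.16 to 0.02 (edgeR adjusted p = 0.511), or -10.7% to 1.22% in linear terms. With NaHPO4 expression of Alpl fell by 13.6% (76.9 ± 2.98 to 66.5 ± 2.33 CPM, log2FC -0.21 with a standard error of 0.044, edgeR adjusted p = 0.00128). The call was made in 16 of 17 alternatives and not by limma on the deposited TMM values (adjusted p = 0.109).

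Phospho1 lies on chromosome 11, 95715264 to 95722973, plus strand (ENSMUSG00000050860), with 3 exons. Its libraries held 56.3, 54.9 and 58.4 CPM in Control, 58.2, 56.6 and 55.8 CPM with BGP and 50.9, 52.6 and 47.8 CPM with NaHPO4. Control and BGP libraries overlapped fully, and NaHPO4 libraries lay below both. The log2FC with BGP was 0.01 (-0.09 to 0.11, edgeR adjusted p = 0.962), and with NaHPO4 Phospho1 fell by 10.8% (56.5 ± 1.75 to 50.4 ± 2.41 CPM, log2FC -0.16 with a standard error of 0.0477, edgeR adjusted p = 0.0257). This call was lost without Control replicate 1, Control replicate 3 or NaHPO4 replicate 3 (adjusted p = 0.0729, 0.142 and 0.159), with total counts as library sizes (0.0605) and by limma (0.168). Of its merged exon bases, 28.3% are shared with Abi3 on the opposite strand and 30.2% with Zfp652 on the same strand, and whether counting used strand is not given in the sources used here, so the level of Phospho1 is uncertain. The 2 overlapping genes did not pass the test with NaHPO4, with log2FC of 0.03 for Zfp652 (adjusted p = 0.798) and -0.15 for Abi3 (adjusted p = 0.647, edgeR).

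Nt5e is located on chromosome 9, 88209089 to 88254146, plus strand (ENSMUSG00000032420), with 9 exons. Control libraries held 36.8, 37.6 and 38.6 CPM, BGP libraries 30.4, 38.5 and 35.8 CPM and NaHPO4 libraries 36.6, 33.2 and 29.0 CPM. The Control libraries were tight and the treated libraries spread 11.7% and 11.6% of their means, so that BGP overlapped Control and the highest NaHPO4 library lay just under the lowest Control library. No change of Nt5e passed the test: the log2FC was -0.11 with BGP (-0.26 to 0.03, adjusted p = 0.534) and -0.19 with NaHPO4 (-0.34 to -0.05, adjusted p = 0.0925, edgeR). The NaHPO4 value passed without NaHPO4 replicate 1 (log2FC -0.28, adjusted p = 0.0164) and when all genes with a count were tested (adjusted p = 0.0339). That last fit gave Enpp1 with BGP an edgeR adjusted p of 1.55e-242, against 4.90e-19 in the main fit, with a log2FC of 2.6 in both. The reason was not tested, so this pass of Nt5e carries less weight.

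Counted together, 2 of the 5 genes were higher (Enpp1 and Ank) and 0 lower with BGP at a false discovery rate (FDR) below 0.05, where 1.86% of all tested genes were higher and 0.665% lower. The count lower was also 0 at an unadjusted p under 0.05 and in DESeq2 and limma. Both also passed the study's rule for differentially expressed genes, which adds a log2FC above 0.5 and was met by 0.482% of tested genes. With NaHPO4, 2 genes were higher (Enpp1 and Ank), against 3.43% of tested genes, and 2 lower (Alpl and Phospho1), against 3.95%. The differentially expressed genes among them were again Enpp1 and Ank, where 0.446% of tested genes passed that rule upward. The NaHPO4 falls of Alpl and Phospho1 came with a lower summed level of the 5 osteoblast markers (48600 to 51900 CPM, against 54800 to 58500 in Control). Col1a1 made up most of that sum, with means of 43300 CPM in Control and 37300 with NaHPO4. Col1a1 and Bglap fell (log2FC -0.22 and -0.15, edgeR adjusted p = 2.47e-05 and 0.0146). Runx2, Sp7 and Ibsp did not pass (log2FC -0.09, -0.09 and -0.03, edgeR adjusted p = 0.0892, 0.061 and 0.664). Of markers for other cell types, Ctsk (log2FC -0.20, adjusted p = 8.43e-05) and Col2a1 (-0.45, adjusted p = 0.00141) fell with NaHPO4 as well (edgeR). Col2a1 rose with BGP (0.50, edgeR adjusted p = 0.000754). DESeq2 and limma called 0 chondrocyte markers against Control with either treatment. Limma also called 0 osteoblast markers and 0 macrophage and osteoclast markers lower with NaHPO4. The NaHPO4 libraries were also the deepest on average, and the part of the markers or of depth was not tested.

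Organic and inorganic phosphate were compared directly at the same dose and time, as 1 pair of treatments, with p-values adjusted over all 13679 genes. The study states that alkaline phosphatase degrades BGP to inorganic phosphate in culture. How much BGP was left at harvest cannot be read from RNA counts. Of the 5 genes, 3 were higher with BGP than with NaHPO4 (Enpp1, Ank and Phospho1) and 0 were lower, where 3.33% and 2.05% of tested genes were called in those directions by edgeR. At an FDR below 0.05 DESeq2 called 2 higher and limma 0, with 0 lower in both. At an unadjusted p under 0.05 in edgeR, 4 were higher and 0 lower. The share of all tested genes at that threshold was not counted, so these counts cannot be set against it. Enpp1 was 1.61-fold higher with BGP (95% interval 1.41 to 1.84, log2FC 0.69 with a standard error of 0.094, edgeR adjusted p = 3.36e-06), and Ank was 1.44-fold higher (1.34 to 1.54, log2FC 0.52 with a standard error of 0.0504, edgeR adjusted p = 2.42e-09). These 2 also passed the study's rule with its minimum log2FC, met upward by 0.380% of tested genes. The Enpp1 call was lost in DESeq2 (log2FC 0.69, adjusted p = 0.0963) and in limma (0.67, adjusted p = 0.291), and the Ank call in limma (0.51, adjusted p = 0.0699).

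Phospho1 was 12.7% higher with BGP than with NaHPO4 (5.39 to 20.6%, edgeR adjusted p = 0.0233), while the BGP mean of 56.9 ± 1.20 CPM lay within the Control range. Leaving out BGP replicate 1 (adjusted p = 0.123), BGP replicate 2 (0.0626) or NaHPO4 replicate 3 (0.164) ended this call, as did total counts (0.0641) and limma (0.200). For Alpl the difference was 10.1% (3.43 to 17.2%, edgeR adjusted p = 0.0601), with no overlap between the libraries, and it passed only without NaHPO4 replicate 2 (adjusted p = 0.0493). Nt5e gave 5.82% (-4.24 to 16.9%, edgeR adjusted p = 0.633), so that these libraries show neither a difference nor likeness of the treatments for it.

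**Figure D2:**
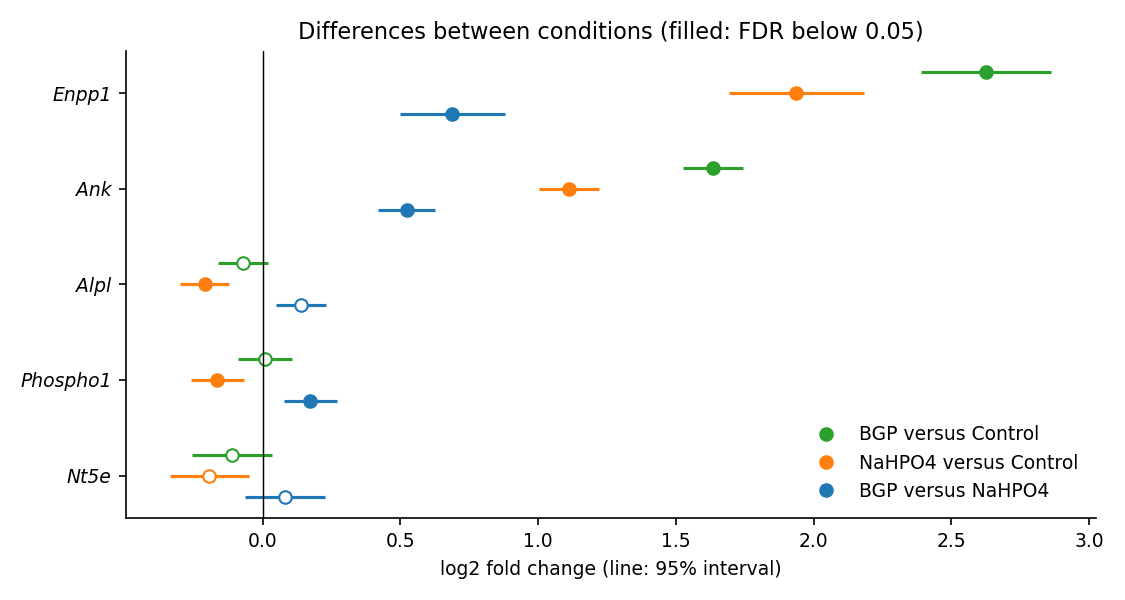
log2FC of the 5 genes in the comparisons BGP versus Control (green), NaHPO4 versus Control (orange) and BGP versus NaHPO4 (blue), with lines for 95% intervals and filled points for an FDR below 0.05. Enpp1 and Ank lie between 0.52 and 2.63 in every comparison, and the other genes between -0.21 and 0.17.

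To set levels of different genes side by side, CPM were divided by the merged exon length of each gene in kb. In Control, Alpl stood highest at 14.8 ± 0.574 CPM per kb, followed by Ank (9.68 ± 0.844) and Phospho1 (9.34 ± 0.289), whose libraries overlapped, then Nt5e (4.30 ± 0.104) and Enpp1 (0.733 ± 0.262). With BGP, Ank led at 30.1 ± 1.32 CPM per kb, above Alpl (14.1 ± 0.493) and Phospho1 (9.40 ± 0.198), and Enpp1 (4.57 ± 0.583) overlapped with Nt5e (3.98 ± 0.465). With NaHPO4 the order was Ank (20.9 ± 2.15), Alpl (12.8 ± 0.448), Phospho1 (8.33 ± 0.399), Nt5e (3.76 ± 0.434) and Enpp1 (2.83 ± 0.176), with no overlap between neighbours. Among 13631 tested genes with a known length, Enpp1 thus moved from percentile 18.8 to 54.4 with BGP and 41.8 with NaHPO4, and Ank from 75.1 to 93.3 and 89.7. Alpl stayed between percentiles 81.6 and 84.5.

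The order rests in part on the length used, because merged exons of Alpl and Phospho1 are much longer than their canonical transcripts (5197 against 2537 bases and 6053 against 1972 bases). Per kb of canonical transcript, a choice made after the data were seen, Alpl and Phospho1 overlapped in Control at 30.3 and 28.7 CPM per kb, Ank followed at 11.0 and Enpp1 stayed lowest at 1.12. With BGP, Ank led by that length as well (34.1 against 28.9 for Alpl and 28.8 for Phospho1), while Nt5e (8.39) overlapped with Enpp1 (6.96). With NaHPO4 the libraries of Ank (mean 23.7), Alpl (26.2) and Phospho1 (25.6) overlapped.

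A ratio of Enpp1 or Ank to Alpl within each library does not depend on how libraries are scaled. Per kb of merged exons, the ratio of Enpp1 to Alpl was 0.0309 to 0.0633 in Control libraries, 0.297 to 0.356 with BGP and 0.201 to 0.242 with NaHPO4. The ratio of Ank to Alpl was 0.595 to 0.690 in Control, 2.09 to 2.21 with BGP and 1.42 to 1.84 with NaHPO4. Both ratios separated the 3 conditions without overlap. In contrast, the ratio of Phospho1 to Alpl was 0.631 ± 0.0183 in Control, 0.667 ± 0.00916 with BGP and 0.651 ± 0.0239 with NaHPO4 (SD, n = 3). The ratio of Nt5e to Alpl was 0.291 ± 0.00421, 0.283 ± 0.0407 and 0.294 ± 0.0371 in that order. Enpp1 also gained on Ank, from a ratio of 0.0519 to 0.0936 in Control to 0.142 to 0.169 with BGP and 0.121 to 0.145 with NaHPO4. The ratios are descriptions without a test, and by the canonical length the mean ratio of Ank to Alpl was 0.362, 1.18 and 0.908.

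**Figure D3:**
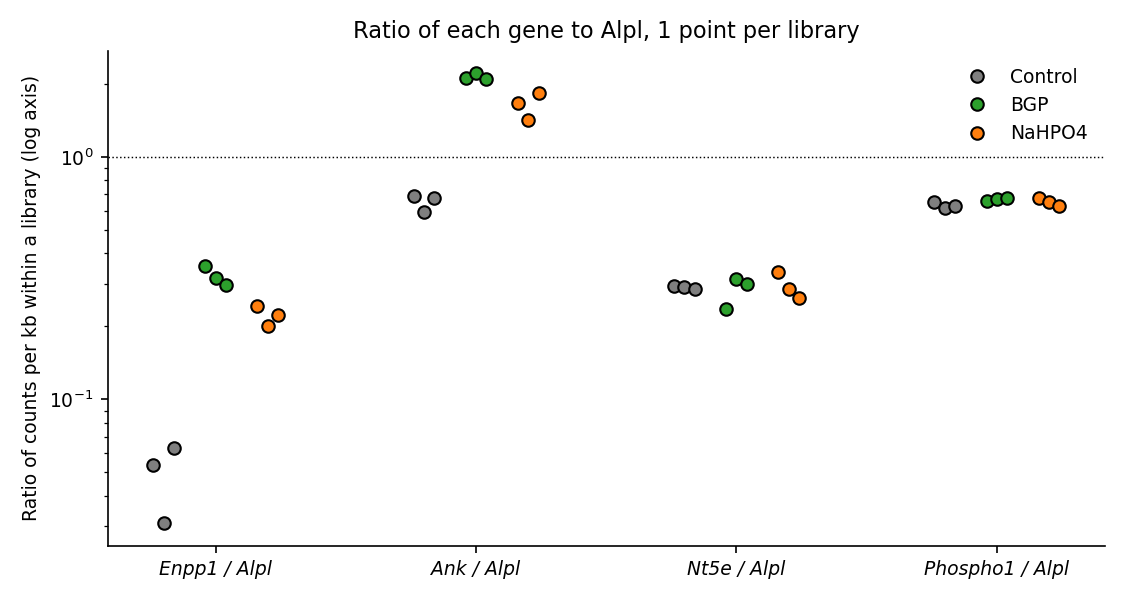
Ratio of each gene to Alpl in counts per kb of merged exons, 1 point per library on a log axis, for Control (gray), BGP (green) and NaHPO4 (orange); the dotted line marks equal levels. Ank lay under Alpl in the Control libraries (0.595 to 0.690) and above it in the treated ones (1.42 to 2.21).

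Across the 9 libraries, log2 CPM of Enpp1 and Ank had a Pearson r of 0.982, and those of Alpl and Phospho1 one of 0.879. The r of Enpp1 with Alpl was -0.469, with Phospho1 -0.139 and with Nt5e -0.457. These values describe 9 libraries in 3 conditions, which the genes share, and are given without a p-value. Among 12079 genes with a mean of at least 1 CPM, the patterns most like Enpp1 were those of Dusp6, a phosphatase of ERK (r = 0.993), Phlda1 (0.992) and Sema7a, a membrane-anchored semaphorin (0.988). Those most like Ank were Fam20c, a kinase of secreted proteins (0.997), Nudt4, a hydrolase of diphosphoinositol phosphates (0.995), and Slc39a14, a metal ion transporter (0.992). Next to Alpl stood Sparc, a bone matrix protein (0.970), Vav2 (0.955) and Pfdn5 (0.949), and next to Phospho1 stood Sema3b (0.976), Git1 (0.974) and Zfp862-ps (0.964). For Nt5e the highest values were those of Sumf1, Zfp69 and Fibp, all 0.932.

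The nearest tested genes on each side of the members were also read, with untested genes skipped. Enpp1 lies between Ccn2, which encodes a secreted matricellular protein, 38912 bases away on its lower side, and Enpp3, a relative of Enpp1, 60247 bases away on the other. Ccn2 held 41.5, 36.6 and 39.7 CPM in Control, 76.4, 82.2 and 69.8 CPM with BGP and 63.3, 59.7 and 60.6 CPM with NaHPO4, in the order of Enpp1 and without overlap. It rose with BGP (log2FC 0.96 with a standard error of 0.0545, edgeR adjusted p = 8.03e-16) and with NaHPO4 (0.64 with a standard error of 0.0547, adjusted p = 7.40e-11). Enpp3 had few reads, with 7, 12 and 9 counts in Control, 29, 25 and 25 with BGP and 28, 28 and 20 with NaHPO4. It rose with BGP (log2FC 1.53 with a standard error of 0.373, edgeR adjusted p = 0.0161) and with NaHPO4 (1.20 with a standard error of 0.376, adjusted p = 0.0426). The BGP call was lost without Control replicate 1, Control replicate 3 or BGP replicate 1 (adjusted p = 0.0972, 0.0860 and 0.0918), and the NaHPO4 call was made in 4 of 16 alternatives and lost whichever library was left out (0.0507 to 0.179).

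The neighbours of the other members moved less. For Ank these were Fbxl7, 570887 bases away, and Otulin, and for Nt5e D030062O11Rik, 594946 bases away, and Snx14. Like Rap1gap for Alpl and Zfp652 and Abi3 for Phospho1, they passed the test in no comparison (edgeR). Otulin overlaps the span of Ank on the opposite strand without shared exon bases, and its log2FC with BGP was -0.08 (adjusted p = 0.661), against 1.63 for Ank. Ece1, 65428 bases from Alpl, fell with NaHPO4 (log2FC -0.19 with a standard error of 0.039, edgeR adjusted p = 0.00138), as Alpl did, and BGP libraries exceeded NaHPO4 libraries by 0.29 (adjusted p = 2.91e-06), and limma made neither call (adjusted p = 0.138 and 0.0710).

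The rest of the pathway was read from lists of related genes, described by counts and medians. The median log2FC of all tested genes, given beside them, was -0.0043 with BGP, 0.0001 with NaHPO4 and -0.0018 between the treatments. Counts at an unadjusted p under 0.05 (edgeR) stand without the share of all tested genes, which was not counted at that threshold. In the ENPP family besides Enpp1, 4 of 6 genes were tested, and with each treatment 1 (Enpp3) was higher and 0 lower (0 lower also at an unadjusted p under 0.05 and in DESeq2 and limma), with medians of -0.07 (BGP) and -0.06 (NaHPO4). Enpp2, the source of lysophosphatidic acid, was more abundant at 14.7 CPM in Control and gave a log2FC of -0.10 with BGP (edgeR adjusted p = 0.810). Of 9 other alkaline and acid phosphatases, 4 were tested and 0 called by edgeR, DESeq2 or limma in any comparison, with 1 of them lower with BGP than NaHPO4 at an unadjusted p under 0.05. The intestinal and placental-type alkaline phosphatase genes Alpi, Akp3 and Alppl2 had 0 counts in all libraries, so that Alpl was the alkaline phosphatase gene with reads. Of 8 genes of the ENTPD family, 4 were tested (Entpd3, Entpd5, Entpd6 and Entpd7) and 0 called by the same tools. At an unadjusted p under 0.05, 1 was lower with BGP and 1 higher with NaHPO4. The ATP and ADP ectohydrolase gene Entpd1 (CD39) had 0 counts, and Entpd2, Entpd4 and Entpd8 were not tested either.

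Inside the cell, pyrophosphate is cleaved by Ppa1 and Ppa2. Of 3 genes in that list, Ppa1 rose with NaHPO4 (39.2 to 44.4 CPM, log2FC 0.18, edgeR adjusted p = 0.0349). That call was lost without Control replicate 1, NaHPO4 replicate 2 or NaHPO4 replicate 3 (adjusted p = 0.263, 0.160 and 0.0520), in DESeq2 (0.0577) and in limma (0.165). Of 6 genes for release of ATP, 4 were tested, and Panx3, a channel of osteoblasts, fell with NaHPO4 from 572 to 600.0 CPM in Control libraries to 471 to 526 CPM (log2FC -0.22, edgeR adjusted p = 3.05e-05), while BGP gave -0.07 (adjusted p = 0.419). Limma did not make the NaHPO4 call (adjusted p = 0.0890). Between the treatments, Panx3 was higher in BGP libraries (log2FC 0.15, edgeR adjusted p = 0.00478), a call lost without NaHPO4 replicate 3 (adjusted p = 0.0782) and in limma (0.248). Abcc6, which drives ATP release in the liver, was near the floor with at most 3 counts in a library.

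Downstream of Nt5e, adenosine is taken up by equilibrative transporters. In the list for adenosine handling, 5 of 10 genes were tested and Slc29a1, which encodes the transporter ENT1, was the gene called. It held 185, 180 and 185 CPM in Control, 277, 286 and 255 CPM with BGP and 235, 216 and 234 CPM with NaHPO4, in 3 ranges that did not overlap. It rose with BGP (log2FC 0.57, edgeR adjusted p = 2.41e-13) and with NaHPO4 (0.31, adjusted p = 4.02e-07). BGP libraries exceeded NaHPO4 libraries by 0.26 (edgeR adjusted p = 2.01e-05), a call that limma did not make (0.106). The adenosine receptor genes Adora1 and Adora3 had 0 counts, and Adora2a and Adora2b had at most 7 and 9 counts in a library. Of 10 other 5'-nucleotidase genes, 8 were tested and 0 called against Control by edgeR, DESeq2 or limma, with 1 lower with BGP and 1 higher with NaHPO4 at an unadjusted p under 0.05. Between the treatments Nt5c3 was lower in BGP libraries (log2FC -0.21, edgeR adjusted p = 0.0454), a call made in 8 of 17 alternatives. At an unadjusted p under 0.05, 1 gene of this list was higher and 4 were lower with BGP than with NaHPO4.

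Upstream of Phospho1, sphingomyelinases and choline kinases supply phosphocholine. The list for this step held them together with Pcyt1a, Pcyt1b, Phospho2 and Slc44a1, and all 9 genes were tested. Smpd3, the neutral sphingomyelinase of mineralizing cells, held 673, 658 and 683 CPM in Control, 641, 588 and 606 CPM with BGP and 537, 519 and 496 CPM with NaHPO4. It fell with NaHPO4 (log2FC -0.38, edgeR adjusted p = 4.96e-10) and stood 0.24 above NaHPO4 in BGP libraries (adjusted p = 7.44e-06). With BGP it fell by 0.13 on the log2 scale (edgeR adjusted p = 0.0276), a call lost without Control replicate 1, Control replicate 3, BGP replicate 2 or BGP replicate 3 (adjusted p = 0.0937, 0.114, 0.234 and 0.0987) and in limma (0.335). Limma also lost the difference between the treatments (adjusted p = 0.101). The other 8 genes passed the test in no comparison (edgeR), and the list had medians of -0.04 with BGP and -0.03 with NaHPO4.

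The products of Alpl and Nt5e are held on the membrane by a glycosylphosphatidylinositol (GPI) anchor. Of 25 genes that build or attach it, 24 were matched and tested, and 0 passed against Control in edgeR, DESeq2 or limma, with medians of -0.01 (BGP) and 0.04 (NaHPO4). At an unadjusted p under 0.05, 2 were higher and 1 lower with BGP, and 4 higher and 1 lower with NaHPO4. At that threshold 0 were higher and 2 lower with BGP than with NaHPO4. Between the treatments Pigm was lower with BGP (log2FC -0.16, edgeR adjusted p = 0.0436), a call made in 7 of 17 alternatives. Of 6 phosphate transporter genes, 3 were tested. Slc20a1, which encodes the sodium-phosphate cotransporter PiT-1, rose from 40.0, 39.2 and 37.6 CPM in Control to 82.2, 86.8 and 81.7 CPM with BGP (log2FC 1.10, edgeR adjusted p = 3.25e-19). With NaHPO4 it rose to 65.4, 62.9 and 59.9 CPM (log2FC 0.69, adjusted p = 5.75e-13), and BGP libraries exceeded NaHPO4 libraries (0.41, adjusted p = 3.57e-08). Slc20a2 (PiT-2) gave log2FC of -0.07 and -0.02 (adjusted p = 0.580 and 0.857), and the phosphate exporter Xpr1 gave 0.06 and 0.07 (adjusted p = 0.607 and 0.401), with BGP and NaHPO4.

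**Figure D4:**
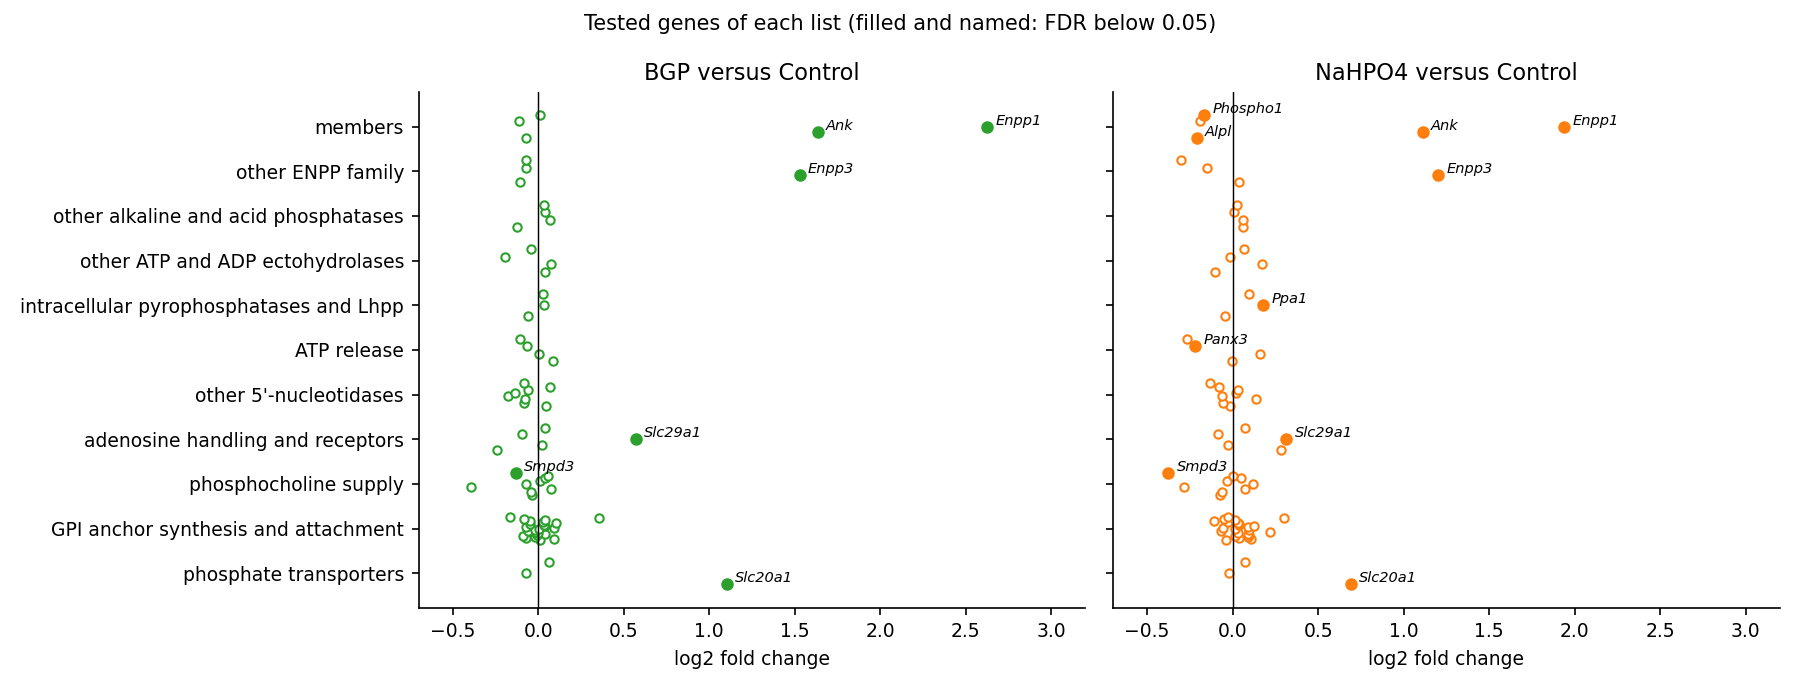
log2FC of each tested gene of the 5 members and of the related lists, against Control, for BGP (left, green) and NaHPO4 (right, orange); filled and named points passed an FDR below 0.05. Besides Enpp1 and Ank, the points to the right in both panels are Enpp3 (1.53 and 1.20), Slc20a1 (1.10 and 0.69) and Slc29a1 (0.57 and 0.31). Of the lists, the ATP and ADP ectohydrolases are genes of the ENTPD family, and phosphocholine supply also holds Pcyt1a, Pcyt1b, Phospho2 and Slc44a1.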

How the data were processed

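RNA sequencing libraries of MC3T3-E1 cells (3 per condition, stranded poly(A) preparation) were re-analysed. Read counts per gene were deposited by the authors as they stood, after mapping in AIR against GRCm39 (Ensembl 104). They also deposited TMM-scaled values, a signal in which the counts of each library are multiplied by 1 factor (1.01 to 1.32), used here for an alternative only. The aligner, the counter and its use of strand are not given in the sources used here. Groups came from the sample labels, and 0 columns belonged to other samples.

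Counts were filtered with filterByExpr (minimum 10), scaled by TMM and fitted over all 9 libraries with edgeR 4.0.16 (glmQLFit, glmQLFTest; R 4.3.3), with Benjamini-Hochberg adjustment over 13679 genes and a threshold of FDR 0.05. Log2 CPM for correlations used a prior count of 2. The common biological variation was 3.64%. Total counts of 21390839 to 28234404 per library set the precision. Intervals cover counting error and a spread that edgeR draws toward that of other genes. For a gene as uneven as Enpp1 in Control they can be too narrow. Alternatives were DESeq2 1.42.0, limma 3.58.1 on log2(value + 1), other scalings and filters, a fit of only the groups compared, the replicate number as a block, and fits without each single library. In data simulated from the mean levels of all 9 libraries, 200 genes were given a 2-fold change in BGP. Against Control, 185 of them were recovered (92.5%, 13500 genes tested), with 7 false calls. NaHPO4 against Control, simulated without change, gave 0 calls. Every gene was given the common variation, so the recovery does not describe genes with a wider spread, such as Enpp1 in Control (SD 35.8% of the mean).

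The members and lists were chosen with earlier results of these data known. Genes named are the members, called genes of the lists and defining untested ones. Also named are the 3 genes most like each member, nearest tested neighbours and overlapping genes. Positions, lengths and sequences came from the GRCm39 genome with GENCODE vM39, which held 13631 of the tested genes. Enpp2, Otulin, Slc20a2, Xpr1 and the marker genes given with values were added for context after their values were seen. Python 3.11.15, pandas 2.3.3 and matplotlib 3.10.9 were used.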

Additional observations from a re-analysis of the deposited data

How the results depend on the processing

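Each log2FC was recomputed under 17 alternatives (16 for Enpp3, which did not reach 10 counts in every library). The calls of Enpp1 and Ank against Control were made in all 17, also with the replicate block, where Enpp1 gave log2FC of 2.63 (BGP) and 1.94 (NaHPO4) and Ank 1.64 and 1.11. Between the treatments the replicate block gave 0.69 for Enpp1, 0.53 for Ank and 0.17 for Phospho1, and it changed no call of a member. Deviations of same-numbered libraries had correlations of -0.01 to 0.04 over 9 pairs. Those of Control with NaHPO4 were all positive (0.0301, 0.0426 and 0.0409), and the other pairs ran from -0.0092 to 0.0242. Whether the number marks a pairing cannot be told from these values.

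With NaHPO4 against Control, limma on the TMM values lost Alpl (-0.20) and Phospho1 (-0.15), leaving 2 members called in place of 4, as did a minimum log2FC of 0.5 (2 members). Total counts as library sizes lost Phospho1 (-0.14), and testing all genes added Nt5e (-0.19). Between the treatments DESeq2 lost Enpp1 (0.69), limma lost Enpp1 (0.67), Ank (0.51) and Phospho1 (0.16), leaving 0 members in place of 3, and total counts lost Phospho1 (0.15). Over all genes limma called 51 with BGP, 224 with NaHPO4 and 84 between them, against 346, 1009 and 736 in edgeR's quasi-likelihood test. The cause of these differences was not tested.

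With 1 library left out in turn, Phospho1 ranged from -0.20 to -0.13 with NaHPO4, from 0.14 to 0.20 between the treatments and from -0.013 to 0.033 with BGP, the negative values coming without Control replicate 2 (-0.013) and without BGP replicate 1 (-0.0085). Nt5e ranged from -0.28 to -0.11 with NaHPO4, from -0.18 to -0.02 with BGP and from 0.0003 to 0.17 between the treatments, and Alpl from -0.10 to -0.04 with BGP and from 0.11 to 0.17 between the treatments. Genes called over all with BGP then numbered 202 (without BGP replicate 1) to 406, those with NaHPO4 650 (without Control replicate 1) to 992 and those between the treatments 478 (without BGP replicate 1) to 769. Levels per kb of canonical transcript were higher than per kb of merged exons for all 5 genes. Depth limits Enpp3, with 7 to 29 counts in a library.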
